A study of Mus musculus with 12 samples.

Results

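miR-22 is a microRNA (miRNA), a short RNA that guides Argonaute proteins to messenger RNAs, and it is made from a single mouse gene, Mir22. The account below follows its mature products, mmu-miR-22-3p and mmu-miR-22-5p (miR-22-3p and miR-22-5p for short), in extracellular vesicles, the membrane particles that cells release with small RNA inside. These 2 rows were picked by name out of 1978 annotated miRNA rows, of which 501 held a count, in a table of 3509 rows. They were picked with their counts already known, so their levels and group differences are given as a description. Where calls by edgeR or DESeq2 are counted for them, the share or number of tested miRNAs called stands beside the count, and nothing is concluded from it.

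The vesicles came from bone marrow mesenchymal stem cells of C57BL/6 mice, multipotent stromal cells of the marrow that give rise to fat, bone and cartilage cells. The 12 libraries fall into the groups aFM, NY, PLL and DZ, with replicates A, B and C each, and the labels do not say what aFM, NY and DZ stand for. The design text describes 48 h of exposure to 2 µg/ml of the hydatid antigen preparations ESPs, HCF or pLL, and PLL carries the name of pLL. All 12 libraries, DZ included, carry the same label of antigen treatment and the same genotype, so no group is labelled as untreated, and DZ serves below only as a common reference. Nothing in the labels says whether replicates were separate cultures or animals, so an SD may be technical.

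A miRNA hairpin is cut into a duplex with an arm from each side of the stem, named 5p and 3p, and usually the arm that Argonaute keeps is far more abundant than its partner. For miR-22 the kept arm is generally miR-22-3p. It is known for repressing the histone deacetylase gene Hdac4, a target described in heart muscle, and, in blood-forming cells, the DNA demethylase gene Tet2. In human stromal cells it has been described as favouring bone over fat formation through HDAC6.

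The mature sequences, from RefSeq on GRCm38.p6, are shown because the seed (bases 2 to 8, in capitals) largely sets which targets an arm can reach.
miR-22-3p: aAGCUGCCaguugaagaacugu
miR-22-5p: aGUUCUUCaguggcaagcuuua
Both arms are 22 bases long, so a count of reads stands for the same length in each. The seeds differ between the arms, and 0 other mouse miRNAs among the 1679 mature names of the RefSeq table carried either seed. The closest other mature sequence to miR-22-3p, miR-7671-3p, differed at 5 of the first 18 bases and had 1 count in all libraries together.

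The hairpin, shown with both arms in capitals to place them on the stem, lies at chr11:75463716-75463810 on the plus strand of GRCm38.p6.
mir-22 hairpin: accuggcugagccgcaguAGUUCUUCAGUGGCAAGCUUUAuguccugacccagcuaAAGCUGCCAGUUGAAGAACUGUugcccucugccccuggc
It is 95 bases long, with miR-22-5p at bases 19 to 40, miR-22-3p at bases 57 to 78 and 16 bases between them. In the predicted fold (-41.9 kcal/mol, RNAfold), 19 of the 22 bases of miR-22-5p were paired with miR-22-3p, and all 7 seed bases of each arm were paired. In the GENCODE M21 annotation the hairpin lies in exon 2 of the noncoding host gene Mir22hg and also in exon 2 of 1 transcript of the protein-coding gene Tlcd2, both on the same strand. The counts are of mature arms, so they do not show which transcript gave rise to them.

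Libraries held 68647 to 214303 counts, of which 17607 to 60436 lay in annotated miRNA rows and the rest in predicted loci. Annotated rows took 15.4% ± 4.61 of counts in aFM, 23.7% ± 6.23 in NY, 43.9% ± 15.9 in PLL and 17.5% ± 6.23 in DZ (SD, n = 3). Levels are in CPM, annotated counts per 1000000 after scaling of the libraries by TMM (trimmed mean of M-values), whose factors ran from 0.731 (PLL replicate A) to 1.13. All 7 mesenchymal marker miRNAs had counts in each group and together held 78974 to 93998 CPM in aFM, 93182 to 99137 in NY, 50205 to 156701 in PLL and 85786 to 101394 in DZ. The scarcest of them in aFM, the smooth muscle and stromal miR-145a-5p, was counted 2 times there. The sums hide members that moved apart in PLL. There miR-143-3p averaged 36912 CPM, against 73375 in aFM, 81603 in NY and 80843 in DZ. By contrast, miR-140-3p averaged 36772 CPM in PLL, against 4437 in aFM, 5667 in NY and 6662 in DZ. Erythroid markers were abundant too, led by miR-486a-5p and miR-451a, and are given by group below.

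miR-22-3p was counted in every library, from 106 to 278 times, 2327 times in all. It ranked 27th among annotated rows by mean CPM and between 21st and 34th within single libraries. Its neighbours by mean level, which was 6621 CPM for miR-22-3p, were let-7g-5p (7700 CPM), miR-5110 (7598) and miR-99b-5p (7030) above, and miR-320-3p (6465), miR-199a-3p and miR-199b-3p (6264 each, identical counts) below. miR-22-5p was counted 3 to 24 times per library, 133 times in all, and ranked 110th. No library lacked either arm.

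miR-22-3p was lowest in aFM and highest in NY. In aFM it stood at 5440, 4412 and 4412 CPM (replicates A, B and C). NY libraries held 8751, 8503 and 7549 CPM. PLL libraries held 6295, 6304 and 6968 CPM, and DZ libraries 7743, 6031 and 7048 CPM. Every aFM library was below every library of the other groups. The NY values overlapped those of DZ through NY replicate C and DZ replicate A, and the PLL values lay inside the DZ range. Between libraries of the same letter, NY was above DZ for A, B and C, in miR-22-3p and also in miR-22-5p (values below). How many of the tested miRNAs did the same was not counted, so nothing is concluded from it. The labels do not say that a letter marks shared material. NY and DZ libraries of the same letter deviated together weakly over the 132 tested miRNAs (correlations of 0.18, 0.34 and 0.13 for A, B and C). Libraries of different letters were not compared, so this does not establish pairing.

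Means were 4755 ± 594 CPM in aFM, 8268 ± 635 in NY, 6522 ± 386 in PLL and 6941 ± 861 in DZ (SD, n = 3 each), so that the order from high to low was NY, DZ, PLL and aFM. Neighbours in this order overlapped between NY and DZ and between DZ and PLL, and did not overlap between PLL and aFM. Over all 12 libraries the highest value was 1.98 times the lowest. Counting error alone is 6.00% to 9.71% of a library's miR-22-3p count, against coefficients of variation of 5.91% to 12.5% between replicates of a group. In vesicle pools, fewer vesicles that carry miR-22 and fewer copies per vesicle cannot be told apart.

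**Figure D1:**
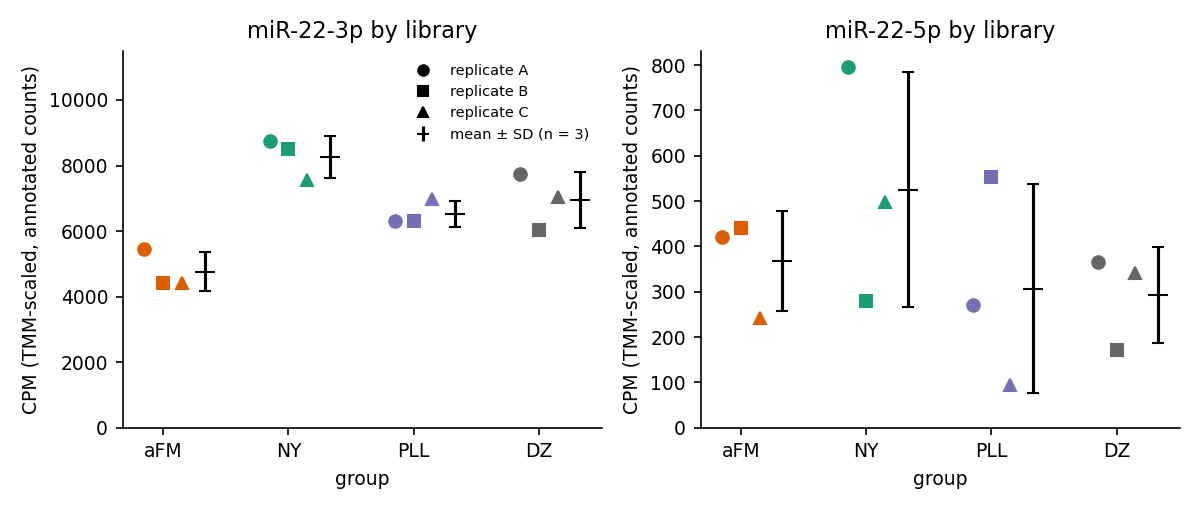
CPM of miR-22-3p (left) and miR-22-5p (right) in each library of aFM, NY, PLL and DZ, with a symbol per replicate and bars for the mean ± SD (n = 3). The 3 aFM libraries lie at 4412 to 5440 CPM of miR-22-3p, below all others, whereas the miR-22-5p libraries overlap between all groups.

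miR-22-5p showed no such order. aFM libraries held 422, 441 and 242 CPM, NY libraries 796, 279 and 499 CPM, PLL libraries 272, 553 and 95.4 CPM, and DZ libraries 366, 171 and 341 CPM. The groups overlapped in all 6 pairs. Group means were 368 ± 110 CPM in aFM, 525 ± 259 in NY, 307 ± 231 in PLL and 293 ± 106 in DZ (SD, n = 3 each). A count of 3, as in PLL replicate C and DZ replicate B, has a counting error of 57.7%, and the coefficients of variation between replicates ran from 29.9% in aFM to 75.2% in PLL.

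The share of miR-22-3p in annotated counts, which uses no scaling factor, gave the same order of group means but set PLL replicate A apart from PLL replicates B and C. It was 0.503% ± 0.0563 in aFM, 0.820% ± 0.0503 in NY, 0.645% ± 0.163 in PLL and 0.682% ± 0.0753 in DZ (SD, n = 3). PLL replicate A held 0.460% (Wilson 95% interval 0.409% to 0.517%), inside the aFM range of 0.452% to 0.563%, while PLL replicates B and C held 0.710% and 0.766%. On this scale PLL and aFM therefore overlapped, and NY, at 0.780% to 0.877%, did not overlap DZ, at 0.602% to 0.751%. For how many other miRNAs NY and DZ lay apart on this scale was not counted. PLL replicate A is the library with the smallest TMM factor and the largest annotated total, and its summed mesenchymal markers were the highest of all libraries. Such intervals cover counting error only, because reads counted without molecular identifiers need not be separate molecules.

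As a share of all counts, predicted loci included, PLL came out highest. miR-22-3p took 0.0602%, 0.0700% and 0.0981% of all counts in aFM, 0.190%, 0.239% and 0.150% in NY, 0.279%, 0.207% and 0.319% in PLL, and 0.0714%, 0.124% and 0.162% in DZ. PLL did not overlap DZ or aFM, but overlapped NY, and aFM overlapped DZ. For how many other miRNAs these groups lay apart on this scale was not counted. On this scale the highest library was 5.30 times the lowest, against 1.94 times as a share of annotated counts. The share of counts in annotated rows moved in the same order, with PLL highest and aFM lowest. It also left PLL, at 29.2% to 60.7%, apart from DZ (10.3% to 21.6%) and aFM (10.7% to 19.9%). Its part in these values was not tested. In the fit with predicted loci (below), the median annotated miRNA was also higher in PLL, at log2 1.73 against DZ and 2.13 against aFM.

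**Figure D2:**
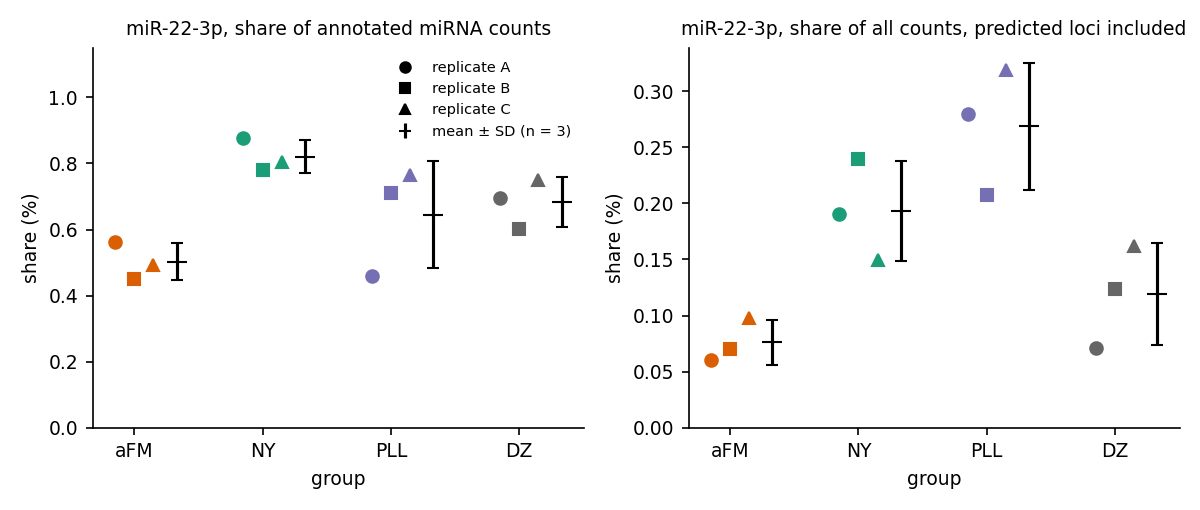
Share of miR-22-3p in annotated miRNA counts (left) and in all counts (right), in percent, per library, with bars for the mean ± SD (n = 3). PLL moves from the middle of the groups on the left to the top on the right, at 0.207% to 0.319%.

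Differences between groups were taken from an edgeR quasi-likelihood fit over all 132 miRNAs that passed its low-count filter, where both arms passed. Against DZ, miR-22-3p had a log2 fold change of -0.55 ± 0.21 (SE) in aFM, where the median miRNA tested stood at -0.14. In NY against DZ it was 0.25 ± 0.21 (median 0.022), and in PLL against DZ -0.090 ± 0.21 (median 0.22), the last turning to 1.38 when predicted loci entered the fit. Between the other groups it was 0.80 ± 0.21 in NY against aFM (median 0.18), 0.46 ± 0.21 in PLL against aFM (median 0.31) and -0.34 ± 0.20 in PLL against NY (median 0.17), which turned to 0.92 with predicted loci in the fit. In that fit the annotated miRNAs had a median of 1.73 in PLL against DZ, 2.13 in PLL against aFM and 1.49 in PLL against NY, so miR-22-3p was below that median in PLL against DZ and PLL against NY in both fits.

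At an adjusted p under 0.05 (Benjamini-Hochberg, all tested miRNAs), edgeR called miR-22-3p in 0 of the 6 comparisons and DESeq2 in 0, and its unadjusted edgeR p was under 0.05 in 3 of them, namely aFM against DZ, NY against aFM and PLL against aFM. The share of tested miRNAs called by edgeR was 18.9% in aFM against DZ, 0.758% in NY against DZ, 3.79% in PLL against DZ, 3.79% in NY against aFM, 9.09% in PLL against aFM and 6.82% in PLL against NY. For DESeq2 it was 14.9%, 0.2%, 9.52%, 6.83%, 9.14% and 5.91% in the same order, and for an unadjusted edgeR p under 0.05 it was 30.3%, 14.4%, 28%, 27.3%, 32.6% and 21.2%. In NY against aFM it was called by edgeR without PLL replicate A, without DZ replicate B or with identical rows merged. Those fits called 12, 8 and 6 miRNAs there in all. With predicted loci in the fit it was called in PLL against aFM, where 84 of 141 annotated miRNAs tested were called. Libraries not overlapping was a common state: in aFM against DZ, 15.9% of tested miRNAs lay below without overlap as miR-22-3p did, and in NY against aFM 24.2% lay above as it did. In PLL against aFM 21.2% lay above, and in PLL against NY 15.2% lay below, as miR-22-3p did in each. Since the rows were picked with these values known, nothing further is read from these counts.

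**Figure D3:**
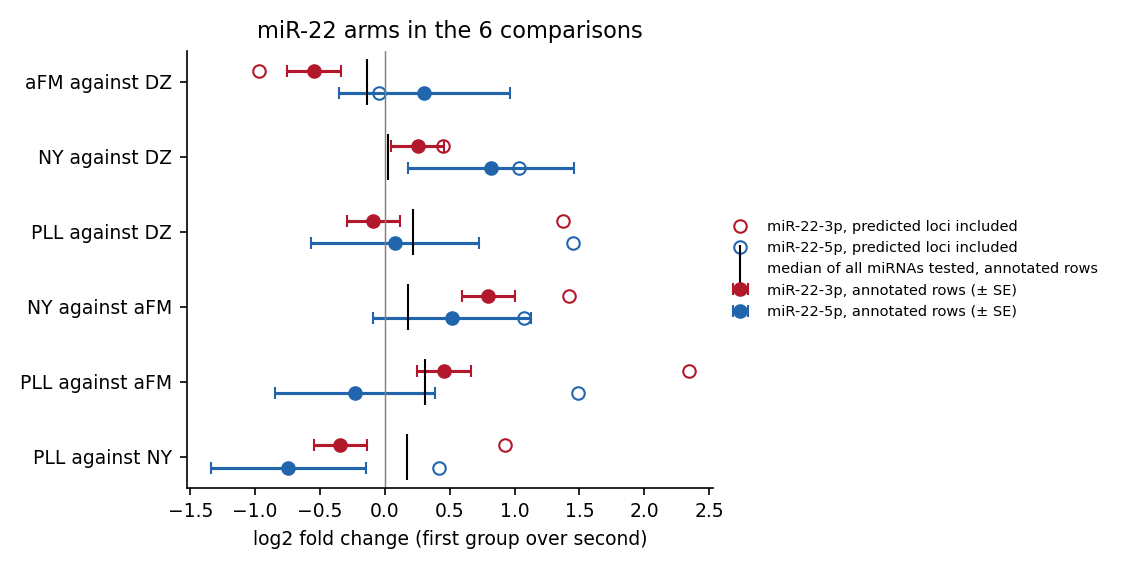
Log2 fold changes (horizontal axis, first group over second) of miR-22-3p and miR-22-5p in the 6 comparisons, as filled points ± SE from the fit on annotated rows, open points with predicted loci in the fit, and a black tick for the median of all 132 miRNAs tested. For miR-22-3p the filled points run from -0.55 in aFM against DZ to 0.80 in NY against aFM, and the open points of all PLL comparisons lie far to the right.

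The fold changes of miR-22-5p were smaller than their standard errors in 4 of the 6 comparisons. They were 0.30 ± 0.66 in aFM against DZ, 0.82 ± 0.64 in NY against DZ, 0.077 ± 0.65 in PLL against DZ, 0.52 ± 0.61 in NY against aFM, -0.23 ± 0.62 in PLL against aFM and -0.74 ± 0.60 in PLL against NY. With predicted loci in the fit the sign changed in aFM against DZ (-0.041), PLL against aFM (1.49) and PLL against NY (0.42). Single libraries also moved these values. In aFM against DZ the fold change was 0.072 without aFM replicate B, and in NY against DZ it was 0.41 without NY replicate A and 1.14 without NY replicate B. In NY against aFM it was 0.062 without NY replicate A and 0.83 without NY replicate B, and without PLL replicate B it was -1.15 in PLL against aFM and -1.61 in PLL against NY, where it was -0.36 without NY replicate A. In PLL against DZ the sign rested on single libraries, at -0.92 without PLL replicate B, -0.21 without DZ replicate B and -0.074 to -0.069 without any one aFM library, and in PLL against aFM it was 0.028 without PLL replicate C. It was called in 0 of the 6 comparisons, in 0 by DESeq2, and had an unadjusted p under 0.05 in 0 of them.

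The balance between the arms does not depend on scaling, because both counts come from the same library. Over all libraries miR-22-5p made up 133 of 2460 miR-22 reads, or 5.41% (exact 95% interval 4.55% to 6.37%), so 17.5 reads of miR-22-3p were counted for each read of miR-22-5p. By library the 5p share was 7.19%, 9.09% and 5.19% in aFM, 8.33%, 3.18% and 6.20% in NY, 4.14%, 8.06% and 1.35% in PLL, and 4.51%, 2.75% and 4.62% in DZ. miR-22-3p was the major arm in all 12 libraries. The lowest share, in PLL replicate C, rested on 3 of 222 reads (exact 95% interval 0.280% to 3.90%), and the highest, in aFM replicate B, on 12 of 132 (4.79% to 15.3%).

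Group means of the 5p share were 7.16% ± 1.95 in aFM, 5.90% ± 2.59 in NY, 4.52% ± 3.37 in PLL and 3.96% ± 1.05 in DZ (SD, n = 3 each). All 3 aFM libraries had a higher share than all 3 DZ libraries, and the other pairs of groups overlapped. Among 52 hairpins with enough counts on both arms, the share of the rarer arm lay above without overlap in aFM against DZ for 7.69%, miR-22 among them. The pooled intervals of these groups, 4.81% to 9.92% in aFM and 2.46% to 6.43% in DZ, overlapped. Pooled intervals, here and over all libraries, cover counting error only and leave out the spread between libraries.

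**Figure D4:**
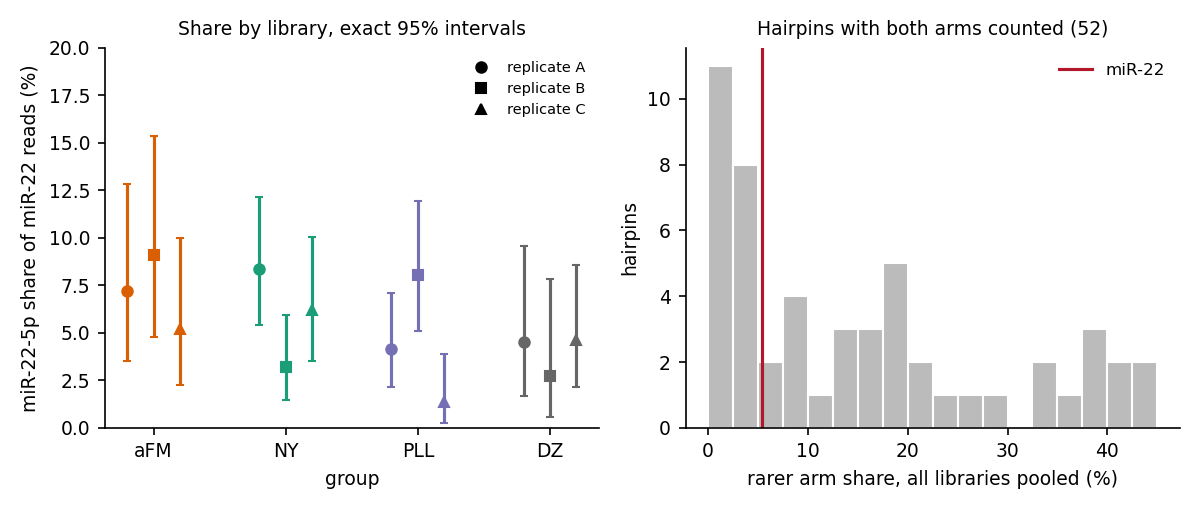
Left: share of miR-22-5p in all miR-22 reads (percent) per library, with exact 95% binomial intervals. Right: number of hairpins by the pooled share of their rarer arm (percent) for the 52 hairpins with enough counts on both arms. A line marks the 5.41% of miR-22, on the low side of the distribution of these hairpins.

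Among the 52 hairpins with enough counts on both arms to enter, miR-22 was moderately one-sided. The rule of entry, given under processing, leaves out hairpins whose rarer arm was scarce. A hairpin with few counts in all could enter only with arms of similar count, such as miR-17 (25 and 33 counts). miR-486a and miR-486b entered separately with identical counts. The median and the ranking below therefore hold only for these 52 hairpins. The rarer arm's share over the 52 hairpins ran from 0.0704% to 43.1%, with a median of 12.5%, and 19 hairpins had a lower share than miR-22 and 32 a higher one. The nearest by share were the cartilage miRNA miR-140 (4.76%, rarer arm 5p), miR-125a (4.10%, rarer arm 3p) and miR-185 (3.89%, rarer arm 3p). In miR-22 the 5p arm was the rarer, as in 29 of the 52 hairpins in all.

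The rows most like miR-22-3p were found by the Pearson correlation of log2 CPM over the 12 libraries, among 126 other rows after merging identical ones. They were miR-21a-5p (r = 0.76, Spearman rho = 0.78), an abundant miRNA of growth and fibrosis, miR-328-3p (0.76, rho = 0.65), the blood cell miRNA miR-142a-5p (0.71, rho = 0.75), let-7d-3p (0.67, rho = 0.82) and miR-29a-3p (0.67, rho = 0.66), a repressor of collagen genes. The libraries share their scaling factors and group structure, so these values describe a pattern and carry no p. The median over the 126 rows was 0.07. The other arm of the same hairpin, miR-22-5p, came 49th, with r = 0.18 and rho = 0.32.

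The mature sequences of the most alike rows held in the RefSeq table are shown for their seeds (bases 2 to 8, in capitals), none of which is the miR-22-3p seed.
miR-21a-5p: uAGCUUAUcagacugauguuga
miR-142a-5p: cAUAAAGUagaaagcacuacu
let-7d-3p: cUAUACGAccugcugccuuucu
miR-29a-3p: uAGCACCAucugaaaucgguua

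Like miR-22-3p, all 5 had their lowest group mean in aFM. The choice by likeness favours this, and favours an aFM maximum in the least alike rows below, so neither is a separate finding. miR-21a-5p averaged 70872 CPM in aFM, 118734 in NY, 88551 in PLL and 106178 in DZ. miR-328-3p averaged 683 CPM in aFM, 1841 in NY, 1162 in PLL and 1604 in DZ, and miR-142a-5p 1719, 2795, 2360 and 3239 CPM in the same groups. let-7d-3p averaged 755 CPM in aFM, 1546 in NY, 966 in PLL and 865 in DZ, and miR-29a-3p 1449, 2346, 2479 and 2307 CPM. The rows least like miR-22-3p were the endothelial miRNA miR-126a-3p (r = -0.89), miR-381-3p of the imprinted Dlk1-Dio3 cluster (-0.85) and miR-365-1-5p (-0.83), each with its highest group mean in aFM. miR-126a-3p averaged 4809 CPM in aFM against 791 in DZ, miR-381-3p 688 against 82.2, and miR-365-1-5p 714 against 279. By library, miR-381-3p held 548 to 816 CPM in aFM and at most 276 elsewhere, with 0 in PLL replicate C and DZ replicate A. It passed the low-count filter only through aFM, so its place among the least alike rows is no separate finding either.

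**Figure D5:**
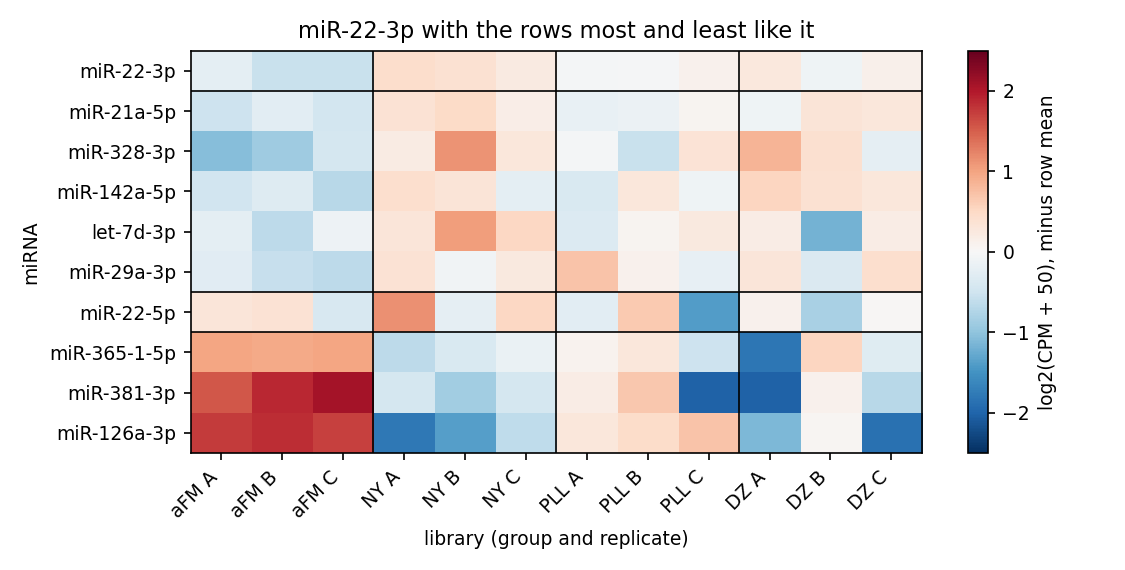
Log2(CPM + 50) minus the row mean for miR-22-3p, the 5 rows most like it, miR-22-5p and the 3 rows least like it, in the 12 libraries by group and replicate. The aFM columns are low in the upper rows, miR-22-3p included, and high in the lowest 3 rows.

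Summed markers of other cell types lay apart between some groups and overlapped between others. Summed endothelial markers (2 miRNAs) held 4623 to 5147 CPM in aFM, 365 to 865 in NY, 1698 to 2323 in PLL and 493 to 1423 in DZ. The 4 erythroid markers summed to 48016 to 81731 CPM in aFM, 63486 to 129622 in NY, 46897 to 67562 in PLL and 61346 to 137122 in DZ. Their mean sums were lower in aFM (60174) and PLL (59300) than in NY (97905) and DZ (105929), with overlapping ranges. Summed myeloid and lymphoid markers held 1843 to 2647 CPM in aFM, 2195 to 3662 in NY, 2332 to 3993 in PLL and 3259 to 3719 in DZ. Of these 5 markers, miR-142a-5p carried most counts, and miR-142a-3p was at 0 in NY and DZ. Striated muscle and heart markers, from tissues rich in miR-22, held 221 to 453 CPM in aFM, 1757 to 2638 in NY, 276 to 543 in PLL and 0 to 796 in DZ. All 5 had 0 to 46 counts per group except miR-206-3p (139 in NY), and miR-208a-3p was at 0 throughout. The liver miRNA miR-122-5p held 13507 to 15699 CPM in aFM, 2421 to 3060 in NY, 3943 to 7827 in PLL and 1890 to 38119 in DZ. Neural markers, nearly all miR-9-5p, held 30037 to 35884 CPM in aFM, 7160 to 8214 in NY, 85597 to 123827 in PLL and 37.9 to 512 in DZ, and the 6 epithelial markers 295 to 907 CPM in aFM, 559 to 829 in NY, 541 to 906 in PLL and 732 to 2105 in DZ. The part of these cell types in the miR-22-3p values was not tested.

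miRNAs that share a known target with miR-22-3p were followed as lists. Of 7 miRNAs known to repress TET genes, all had a count and 5 were tested, and edgeR and DESeq2 called 0 of them in all 6 comparisons. Their median log2 fold change ran from -0.085 in aFM against DZ (all tested miRNAs -0.14) to 0.55 in PLL against aFM (all tested 0.31). An unadjusted p under 0.05 was reached by 2 in PLL against DZ and 1 each in PLL against aFM and PLL against NY. miR-29a-3p, which had the smallest p in 3 comparisons, stood at -0.68 ± 0.32 in aFM against DZ, 0.70 ± 0.32 in NY against aFM and 0.78 ± 0.32 in PLL against aFM. In aFM against DZ the members miR-26a-5p (0.34 ± 0.28) and miR-101a-3p (0.43 ± 0.42) had the opposite sign. Of smallest p elsewhere were miR-125b-5p in NY against DZ (0.50 ± 0.41), miR-26a-5p in PLL against DZ (0.66 ± 0.28, beside 0.98 ± 0.42 for miR-101a-3p) and miR-101a-3p in PLL against NY (1.05 ± 0.41). Of 5 miRNAs known to repress Hdac4, 2 were tested, and edgeR called 1 of them in 1 comparison, PLL against NY, while DESeq2 called 1 there and 1 in NY against aFM. The muscle miRNA miR-206-3p was lower in PLL than in NY (165 against 1496 CPM, a direction called for 3.79% of all tested, log2 fold change -3.15 ± 0.81, edgeR adjusted p = 0.0356), a call lost when any single PLL or NY library was left out (adjusted p up to 0.121) and with predicted loci in the fit. The other tested member, the cartilage miRNA miR-140-5p, stood at 1.79 ± 0.92 in that comparison. Of smallest p elsewhere were miR-206-3p in NY against DZ (2.49 ± 0.81) and NY against aFM (2.55 ± 0.79), and miR-140-5p in aFM against DZ (0.49 ± 1.03), PLL against DZ (2.23 ± 0.99) and PLL against aFM (1.74 ± 0.92).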

How the data were processed

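The deposited values are raw counts per row, since all are whole numbers and library totals differ. The submitters' processing notes name DESeq2, FastQC, STAR and StringTie and the build mm39, without versions, roles or order; for the miRNA caller, the miRBase release and any read filter, the step is not given in the sources used here. Predicted loci, 39.3% to 89.7% of a library's counts, name no miRNA and entered neither library sizes nor tests, except in 1 alternative. Tests used edgeR 4.0.16 in R 4.3.3: filterByExpr (minimum count 10, total 15), TMM, and 1 quasi-likelihood fit of all 12 libraries with a term per group, two-sided, adjusted by Benjamini-Hochberg over 132 miRNAs at 0.05. In 5 simulated tables of 132 miRNAs for aFM against DZ it called 86 of 99 tested rows changed 4-fold, 93 of 95 changed 16-fold and 2 of 430 unchanged. Smaller changes, such as those of miR-22-3p (at most 0.80 in log2 size), were not simulated. The share called at such sizes is therefore unknown. The SE is the log2 fold change over the square root of F. DESeq2 1.42.0, other scalings and filters, merged identical rows, a replicate block and leaving out each library were alternatives.

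miR-22, the likeness rule, the rule of nearest levels and hairpins, and the target and marker lists were chosen with earlier results of these data known. A further target list is not reported here. Of each list the called members, or the member of smallest p, are named; others, and other members given for context, were chosen after their values were seen. Likeness used log2 CPM with a prior count of 2. Hairpins needed both arms tested or 10 counts on each. Sequences came from RefSeq (GRCm38.p6), which held 1679 of the 1978 names; the count table has no coordinates. Folding used RNAfold 2.7.2. Replicates of each group differed by more than sampling noise (chi-square tests). Same-letter replicates deviated together in NY and DZ over the tested miRNAs (correlations of 0.18, 0.34 and 0.13 for A, B and C). This met the criterion of 0.1 for pairing, from the data and not from a label. No other pair of groups met it, and libraries of different letters were not compared.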

Additional observations from a re-analysis of the deposited data

How the results depend on the processing

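The miR-22-3p fold changes kept their sign in all 72 values from fits without 1 library. Of these values, 12 moved by at least the spread between replicates: 5 in PLL against DZ, 5 in PLL against aFM and 2 in PLL against NY. Leaving out 1 library gave -0.32 to -0.091 in PLL against DZ, 0.23 to 0.45 in PLL against aFM and -0.49 to -0.31 in PLL against NY. The values from all libraries lay just outside the range in PLL against DZ (-0.090) and PLL against aFM (0.46), and inside it in PLL against NY (-0.34). For miR-22-5p in PLL against DZ it gave -0.92 to 0.35. Upper quartile factors gave miR-22-3p -0.72 in aFM against DZ, 0.014 in NY against DZ and -0.25 in PLL against DZ. With predicted loci in the fit, miR-22-3p stood at -0.97 in aFM against DZ, 0.45 in NY against DZ, 1.38 in PLL against DZ, 1.42 in NY against aFM, 2.34 in PLL against aFM and 0.92 in PLL against NY, and miR-22-5p at 1.45 in PLL against DZ, 1.49 in PLL against aFM and 0.42 in PLL against NY. That fit also changes filter and dispersions. Apart from fits without 1 library, 39 of 48 values of miR-22-3p and 45 of 48 of miR-22-5p moved by less than the spread between replicates. The replicate block left the fold changes of miR-22-3p in place (-0.55 in aFM against DZ, 0.26 in NY against DZ, 0.80 in NY against aFM) and called neither arm; in NY against DZ, where the letters met the pairing criterion, miR-22-5p stood at 0.77. Its sign in PLL against DZ turned to -0.028 with the block and -0.084 with upper quartile factors. The share of miR-22-3p was 0.0761% in aFM, 0.193% in NY, 0.269% in PLL and 0.119% in DZ over all counts, and 0.885% in NY with identical rows counted once. Pooling the counts of a group moved its 5p share by less than 1 SD. Leaving out 1 of 3 libraries cannot move a group's mean share by 1 SD, so it says nothing on the stability of the shares.

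The counts of called miRNAs behind the percentages were less stable. In aFM against DZ 25 were called, and 16 with RLE factors, 8 with library totals, 15 without a filter, 7 with predicted loci in the fit and 10 with the replicate block. In NY against DZ there was 1, and 7 without a filter. In PLL against DZ there were 5, and 2 with library totals, 17 without a filter, 58 with predicted loci, 18 by DESeq2 and 3 with the block. In NY against aFM there were 5, and 11 without a filter, 9 with predicted loci, 14 by DESeq2 and 2 with the block. In PLL against aFM there were 12, and 84 with predicted loci. In PLL against NY there were 9, and 16 without a filter, 34 with predicted loci and 15 by DESeq2. Without 1 library the counts ran from 5 to 26 in aFM against DZ, 1 to 2 in NY against DZ, 4 to 17 in PLL against DZ, 1 to 12 in NY against aFM, 4 to 20 in PLL against aFM and 5 to 11 in PLL against NY. The split of higher calls moved with the scaling, in aFM against DZ from 12 of 25 to 12 of 16 with RLE factors, 7 of 8 with library totals and, the other way, 8 of 23 with upper quartile factors. The cause was not tested. miR-22-5p had as few as 3 counts in a library, and its replicates also spread widely.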
